A study of Mus musculus with 16 samples.

Results

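The alpha-arrestins are a small family of adaptor proteins, and 5 of their genes were followed across the dorsal raphe nucleus (DRN) libraries: *Arrdc1*, *Arrdc2*, *Arrdc3*, *Arrdc4* and *Txnip*. They were taken by symbol from the table of normalized counts, where all 5 were found among 14504 listed genes. The study sequenced polyA RNA of the DRN, the midbrain nucleus that holds many of the serotonin neurons of the brain, from adult male C57BL/6 mice. Controls were not stressed, the other mice met CD1 aggressors in social defeat sessions over 30 days, and defeated animals were sorted by their behavior during contact into a passive coping strategy (PS) and an active coping strategy (AS). Each phenotype was split between saline and dexamethasone (DEX, a synthetic agonist of glucocorticoid receptors), and brains were taken 6 h later. The comparisons asked how the response to DEX and the effect of stress depend on coping.

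The 6 groups were control saline (n = 3), control DEX (n = 3), PS saline (n = 2), PS DEX (n = 3), AS saline (n = 3) and AS DEX (n = 2), with DEX given at 2 mg/kg. All animals carried the same C57BL/6 background with no added allele, and the control animals were also injected. Controls lived alone for some days before the experiment, whereas defeated mice lived beside an aggressor, so stress and housing cannot be told apart here. The DRN was punched from frozen sections, and the study had set aside DRN samples with low *Tph2*. The study describes more DRN libraries than the 16 analysed here, and that exclusion does not account for the difference. DESeq2 on these 16 libraries called 437 genes for DEX in controls, 187 in PS and 274 in AS mice. These are the same counts that the study gives for the DRN.

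Alpha-arrestins carry an arrestin fold and, in most members, PPxY motifs that bind the WW domains of Nedd4-family ubiquitin ligases, and in this way bring ligases to receptors and transporters at the cell surface. *Txnip*, the thioredoxin-interacting protein, is the member that also binds thioredoxin, and together with *Arrdc4* it is known to lower glucose uptake and to be induced by the glucose-sensing Mondo/Mlx transcription factors. *Txnip* and *Arrdc2* are known in several tissues as genes that glucocorticoids can raise.

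The libraries held between 38207157 and 62447298 reads in the listed genes, and the members were covered by 196 to 2917 reads each. The tissue label was checked against 8 serotonin neuron markers. None was at 0 in any library, and *Tph2*, the serotonin-synthesizing enzyme, ranged from 91764 to 182191 normalized counts. Because the study had set aside DRN samples with low *Tph2*, the level of this gene is not an independent check. Their summed level overlapped between treatments, and 1 of 8 fell with DEX on average, the receptor gene *Htr1a* (log2 change -0.25, limma adjusted p = 0.068). Of all genes, 4.31% passed in this average comparison (adjusted p under 0.1), the share to set beside the marker counts below. Of 12 receptor genes and textbook glucocorticoid targets, 9 rose and 2 fell with DEX averaged over phenotypes, among them *Fkbp5* (log2 change 2.15, SE 0.06, limma adjusted p = 7.70e-11). In bulk tissue, fewer cells of a type and less RNA per cell cannot be told apart. Among markers of other cells, the microglia score (the mean log2 deviation of 8 markers from their average over libraries) was -0.30 to -0.02 after DEX (8 libraries) and 0.03 to 0.58 under saline (8 libraries), without overlap. The summed level of these markers was 7658 to 9074 normalized counts after DEX and 8162 to 13034 after saline, none was at 0, and 3 of 8 fell with DEX (*Cx3cr1*, *P2ry12* and *Aif1*). Of 8 oligodendrocyte markers 3 also fell (*Cnp*, *Ermn* and *Mog*), with summed levels of 130350 to 182820 after DEX and 132140 to 217360 after saline. Among vascular markers 1 of 7 mural genes, *Vtn* (-0.63, limma adjusted p = 0.022), and 1 of 8 endothelial genes, *Tek* (-0.46, adjusted p = 0.085), fell on average, with summed levels that overlapped (mural 5013 to 8108 after DEX and 5812 to 9569 under saline, endothelial 7365 to 9606 and 6391 to 10644). With the mural or the endothelial score as a covariate *Arrdc2* was called in all 4 DEX comparisons. With group means removed, no member's correlation with the microglia or oligodendrocyte marker score passed (exact permutation, adjusted p of 0.31 to 0.87). Removing group means takes out the difference between treatments, and neither score was used as a covariate. The part of the microglia and oligodendrocyte shifts with DEX in the members' results was thus not tested.

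The genes lie on 5 chromosomes of the GRCm38 build. *Arrdc1* spans chr2:24925352-24935252 on the minus strand, *Arrdc2* chr8:70835129-70839720 on the minus strand and *Arrdc4* chr7:68736995-68749241 on the minus strand. *Arrdc3* spans chr13:80883384-80896042 on the plus strand and overlaps *1700023H06Rik* on the other strand, and *Txnip* spans chr3:96557957-96561883 on the plus strand and overlaps the antisense gene *Gm15441*. The study gives a high strand specificity for each sample, but whether reads were counted by strand is not given in the sources used here. Reads from these opposite-strand partners may therefore be included in the values of *Arrdc3* and *Txnip*. The overlapping genes and *Arrdc5* were not analysed here.

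Promoter windows of 3 members are shown because these members stood apart in the results below: *Arrdc2* responded to DEX, *Txnip* varied widely, and *Arrdc4*, with which *Txnip* shares its glucose-sensing regulators, was the least abundant. Each window holds the 250 bases before the RefSeq transcription start (GRCm38.p6), written 5′ to 3′ on the strand of the gene. Capitals mark matches, on either strand, to the CCAAT box (CCAAT, or ATTGG when read from the other strand), the E-box (CACGTG) or the carbohydrate response element (CACGNG followed after 5 bases by a second CACGNG, which can overlap an E-box). The windows are chr8:70839721-70839970 (minus) for *Arrdc2*, chr7:68749239-68749488 (minus) for *Arrdc4* and chr3:96557707-96557956 (plus) for *Txnip*.
Arrdc2: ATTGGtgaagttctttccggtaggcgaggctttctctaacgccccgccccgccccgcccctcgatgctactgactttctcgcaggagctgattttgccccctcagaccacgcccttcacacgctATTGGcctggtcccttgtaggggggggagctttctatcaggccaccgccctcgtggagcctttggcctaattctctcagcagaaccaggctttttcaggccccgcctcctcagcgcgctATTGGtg
Arrdc4: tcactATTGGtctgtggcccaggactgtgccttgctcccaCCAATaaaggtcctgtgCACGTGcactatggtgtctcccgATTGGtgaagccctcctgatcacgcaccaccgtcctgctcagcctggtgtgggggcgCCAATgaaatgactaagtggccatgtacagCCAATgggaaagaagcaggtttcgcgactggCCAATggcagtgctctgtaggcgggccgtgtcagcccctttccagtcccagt
Txnip: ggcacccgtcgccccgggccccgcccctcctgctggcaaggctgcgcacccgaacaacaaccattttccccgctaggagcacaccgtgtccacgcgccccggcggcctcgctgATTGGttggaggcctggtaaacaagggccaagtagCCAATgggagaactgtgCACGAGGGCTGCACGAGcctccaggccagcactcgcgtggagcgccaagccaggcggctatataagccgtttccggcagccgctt

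The *Txnip* window held the match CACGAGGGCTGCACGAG to the carbohydrate response element, 85 to 69 bases before the start. This pattern was found in 15 of 32851 RefSeq promoter windows of that length (0.0457%). The *Arrdc4* window held an E-box 193 to 188 bases before the start, which 6.02% of windows do, and 6 CCAAT boxes, of which *Arrdc2* held 3 and *Txnip* 2; 33.8% of all windows held at least 1. The full glucocorticoid response element, AGAACA followed after 3 bases by TGTTCT (0.00913% of windows), and AGAACA alone (16.1%) were not among the letters of any member's window.

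Under saline the order of the members per kb of exon was alike in controls and PS mice. In control saline libraries *Arrdc3*, an endosomal adaptor for membrane receptors, averaged 307 ± 27.6 normalized counts per kb (SD, n = 3). *Arrdc1*, which recruits budding machinery to form microvesicles at the plasma membrane, averaged 299.7 ± 39.4, and its libraries overlapped those of *Arrdc3*. Next and apart from them came *Txnip* at 197 ± 26.7, then *Arrdc2* at 142 ± 4.38, and *Arrdc4* was lowest at 84.3 ± 15.2. In AS saline libraries *Arrdc3*, *Txnip* and *Arrdc1* overlapped, each with the next one. In control DEX libraries *Txnip* (248.9 to 641), *Arrdc3* (393 to 414.6), *Arrdc2* (294 to 475.2) and *Arrdc1* (249.2 to 372.1) overlapped, each with the next one in the order of their means, and so did the same 4 genes in PS DEX libraries. In AS DEX libraries *Arrdc2* (416.4 to 432.1) overlapped *Txnip* (327.8 to 574.2) and was apart from *Arrdc3* (319.6 to 383.4). *Arrdc4* remained apart below the others in all 6 groups. Over all libraries the mean level per kb of *Arrdc4* was above that of 18.6% of the genes with a known length, and those of the other 4 members were above 52.7% to 59.2%.

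Of the summed level per kb of the 5 genes, *Arrdc2* made up 13.8% ± 0.343 (SD, n = 3) in control saline and 24.4% ± 5.11 (SD, n = 3) in control DEX libraries. In PS mice the share was 14.4% and 14.9% in the 2 saline libraries and 22.2% to 27.1% in the 3 DEX libraries, and in AS mice 9.84% to 17.2% under saline and 23.9% and 27.6% after DEX. The lowest DEX share was above the highest saline share in each phenotype. The share of *Arrdc4* was 8.21% ± 1.63 in control saline and 4.48% ± 0.988 in control DEX libraries (SD, n = 3 each). A share also depends on the levels of the other genes. The level of *Arrdc4* itself was 84.3 ± 15.2 and 70.7 ± 12.4 normalized counts per kb in these groups, with overlapping libraries. Its change did not pass (log2 change -0.25, limma adjusted p = 0.57). Shares were not tested.

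**Figure D1:**
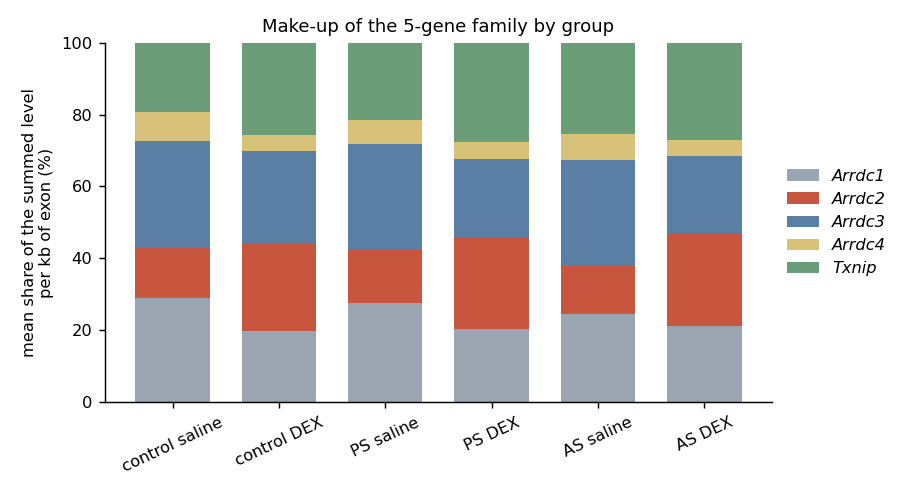
Stacked bars give the mean share (%) of each gene in the summed normalized count per kb of exon of the 5 genes, for each of the 6 groups (n = 2 or 3 libraries). The *Arrdc2* segment is 13.8%, 14.6% and 13.3% in the saline groups of control, PS and AS mice and 24.4%, 25.4% and 25.8% in their DEX groups.

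*Arrdc2* rose with DEX in each phenotype, 2.69-fold in controls, 2.73-fold in PS and 2.78-fold in AS mice, and was the member whose response passed the test in all 3. In controls the normalized counts were 456.7, 447 and 474.8 under saline and 1536, 950.3 and 1295 after DEX. In PS mice they were 523.9 and 520.1 under saline and 1189, 1553 and 1582 after DEX. In AS mice they were 594.5, 511.4 and 393.6 under saline and 1346 and 1396 after DEX. All 8 DEX libraries thus lay above all 8 saline libraries, which 1.88% of the listed genes showed in either direction. The saline libraries ran from 393.6 to 594.5, with both ends in AS mice.

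The log2 change of *Arrdc2* was 1.43 in controls (SE 0.18, limma adjusted p = 0.0011), 1.45 in PS mice (SE 0.20, adjusted p = 0.0032) and 1.47 in AS mice (SE 0.20, adjusted p = 0.0036), on the scale of log2(normalized count + 1). Averaged over phenotypes it was 1.45 (SE 0.11, adjusted p = 3.34e-06), a 2.73-fold rise with a 95% interval of 2.31 to 3.23, and *Arrdc2* stood at position 17 of 14504 genes by p. It was 1 of 5 members called (adjusted p under 0.1) in each of these comparisons, beside 1.26% of all genes for controls, 0.703% for PS, 0.689% for AS and 4.31% for the average, which includes the other 3. An unadjusted p under 0.05 was reached by 2 members in controls (12.1% of all genes), 1 in PS (4.69%), 1 in AS (9.36%) and 3 on average (14%). The median change of the 5 members on average was 0.21, and that of all genes -0.003. The 3 changes in single phenotypes differed from each other by 0.02 to 0.05, with interaction adjusted p-values of 0.99 to 1.0, and the 95% interval of the PS against control difference ran from -0.56 to 0.61. The call in AS mice was lost when only the 2 AS groups were fitted (1.47, adjusted p = 0.30) and when AS DEX library 42 was left out (1.45, adjusted p = 0.11).

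**Figure D2:**
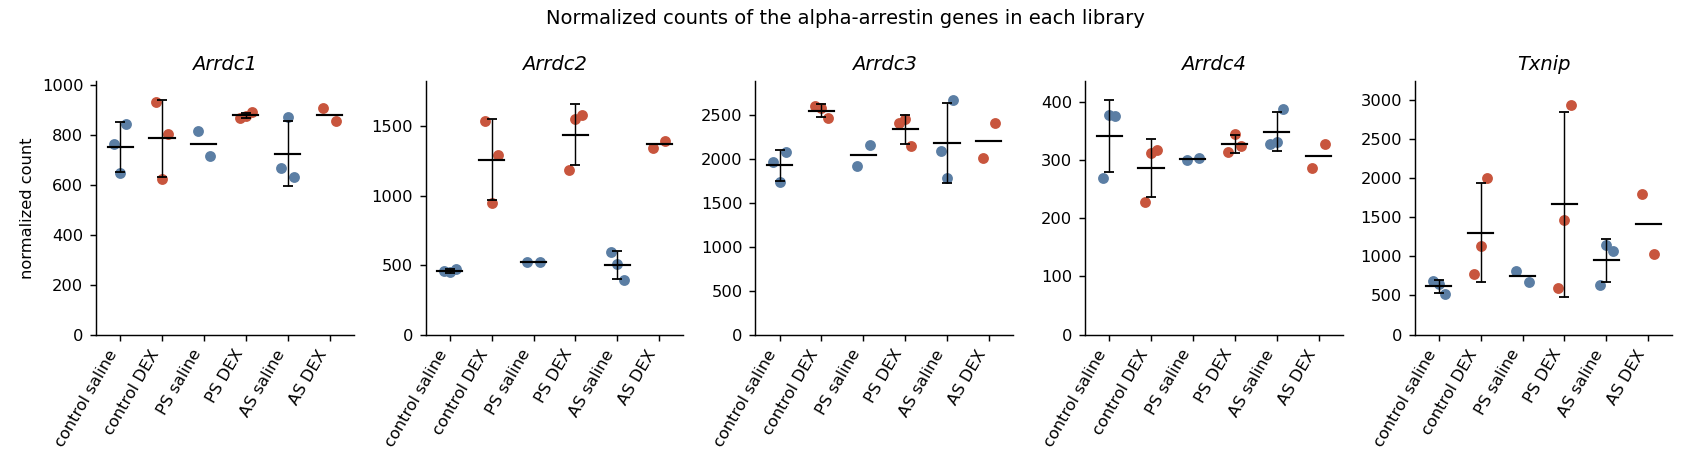
Points are normalized counts of each gene in single libraries (y axis, from 0) by group, in blue for saline and red for DEX; black lines are group means and, for groups of 3 libraries, error bars are 1 SD. *Arrdc2* lies between 393.6 and 594.5 under saline and between 950.3 and 1582 after DEX, whereas *Txnip* spreads from 594.3 to 2933 within the PS DEX group.

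Comparing members within the same libraries asks whether *Arrdc2* rose more than its relatives. The DEX change of *Arrdc2* exceeded that of *Arrdc1* by 1.27 log2 units, that of *Arrdc3* by 1.24 and that of *Arrdc4* by 1.56. Each gave p = 0.0005 in a two-sided exact permutation test over 2000 arrangements of the treatment labels within phenotypes, the smallest p the design allows (adjusted p = 0.00167 over the 10 pairs). These 3 differences lay apart between DEX and saline libraries. The change of *Arrdc2* was 0.64 above that of *Txnip* (exact permutation p = 0.078, adjusted p = 0.1025), which did not pass. Among the other pairs, the change of *Arrdc3* was 0.32 above that of *Arrdc4* (adjusted p = 0.0225, exact permutation) and that of *Txnip* 0.92 above it (adjusted p = 0.028). The latter call was lost without PS saline library 68 (adjusted p = 0.1175). The remaining 4 pairs, *Arrdc1* with each of *Arrdc3*, *Arrdc4* and *Txnip*, and *Arrdc3* with *Txnip*, had adjusted p-values of 0.1025 to 0.86.

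**Figure D3:**
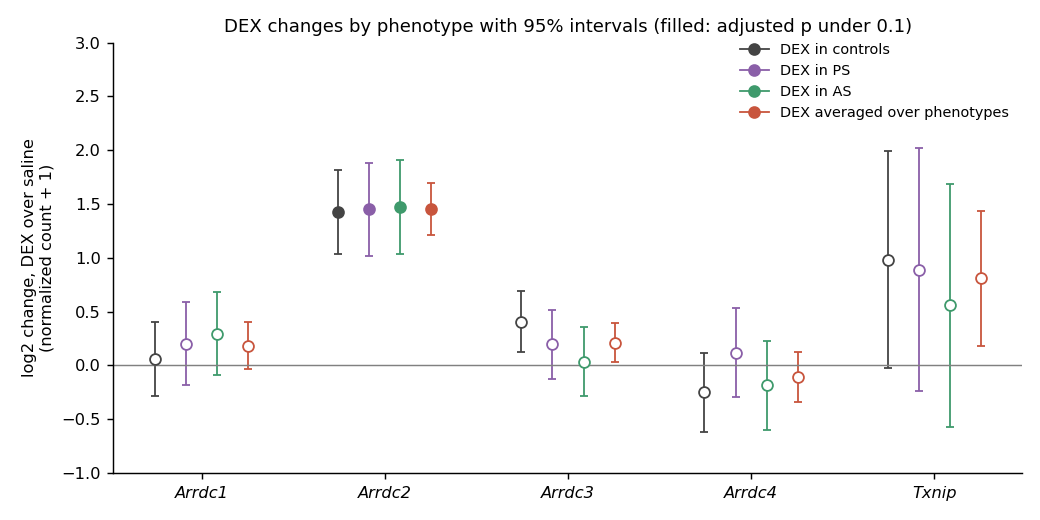
Points are log2 changes from saline to DEX on log2(normalized count + 1) with 95% limma intervals, for each gene in controls, PS, AS and averaged over phenotypes; filled points passed an adjusted p under 0.1. The *Arrdc2* points sit at 1.43 to 1.47, and the *Txnip* intervals are the widest of the 5 genes.

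*Txnip* had higher group means after DEX in each phenotype, but with a spread so wide that the change did not pass the test. In controls the normalized counts were 678.6, 644.5 and 520 under saline and 777.2, 1127 and 2002 after DEX, so these arms did not overlap, as for 15.9% of all genes. In PS mice they were 815 and 669.3 under saline and 594.3, 1468 and 2933 after DEX. In AS mice they were 636.3, 1145 and 1066 under saline and 1793 and 1024 after DEX. PS DEX library 6 was below both PS saline libraries, and AS DEX library 42 was within the AS saline range.

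The log2 change of *Txnip* was 0.98 in controls (SE 0.47, limma adjusted p = 0.42), 0.89 in PS (SE 0.53, adjusted p = 1.0) and 0.56 in AS mice (SE 0.53, adjusted p = 0.66). The average was 0.81 (SE 0.29, unadjusted p = 0.0155, adjusted p = 0.215), or 1.75-fold with a 95% interval of 1.13 to 2.71. On the recovered reads the average gave an adjusted p of 0.12 in edgeR and 0.057 in DESeq2. Without PS DEX library 6 the average was 1.01 and passed (adjusted p = 0.0297).

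The level of *Txnip* moved with markers of ependymal cells, the ciliated cells that line the aqueduct next to the DRN. All 8 ependymal markers were measured and none was at 0, and their summed level ran from 2820 to 6310 normalized counts in control saline, 1617 to 7874 in control DEX, 2820 to 7136 in PS saline, 1041 to 15140 in PS DEX, 3713 to 10150 in AS saline and 2367 to 9503 in AS DEX libraries. None of the 8 was called in any DEX comparison. By gene set enrichment, however, the study reports cilium-related sets as higher in the DRN after DEX in control and PS mice. It reports such sets as higher with stress in AS mice too, and proposes a contribution of ependymal cells near the aqueduct. The marker score was lowest in PS DEX library 6 (-2.80) and highest in PS DEX library 64 (1.74), the libraries with the lowest and the highest *Txnip* among the DEX libraries. With group means removed, *Txnip* and the score correlated at Pearson r = 0.931 (exact permutation p = 0.00135) and Spearman rho = 0.865 (exact permutation p = 0.0023) over 16 libraries. Adjusted over the 70 pairs of a member and a marker list, the first p was 0.047. *Txnip* also correlated with the astrocyte (0.764), GABA neuron (-0.718), glutamate neuron (-0.642) and fibroblast (-0.530) scores, each at an unadjusted exact permutation p under 0.05. None of these passed adjustment (adjusted p of 0.26 to 0.30). Also at an unadjusted p under 0.05 were *Arrdc4* with the blood (0.729), oligodendrocyte precursor (-0.755) and glutamate neuron (-0.555) scores. *Arrdc2* with the serotonin neuron score (-0.556) was another, and none of them passed adjustment (adjusted p of 0.11 to 0.30). For *Txnip* and the ependymal score with group means removed, the Pearson r was 0.866 without the 2 libraries farthest from the median of that centered score. Within a treatment, where group means were not removed, it was 0.803 in the 8 saline and 0.955 in the 8 DEX libraries.

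With the ependymal score as a covariate the change of *Txnip* was 0.92 in controls (adjusted p = 0.038), 0.93 in PS (adjusted p = 0.082), 0.78 in AS (adjusted p = 0.19) and 0.88 on average (adjusted p = 0.00055). With that covariate and each library left out in turn, the average ranged from 0.81 to 0.94 and passed in 16 of 16 fits, whereas the change passed in 13 of 16 fits in controls, 6 of 16 in PS and 0 of 16 in AS. In AS mice the DEX change was larger with the score (0.78) than without it (0.56). In controls, in PS mice and on average the DEX change differed from that without the score by less than 0.1.

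**Figure D4:**
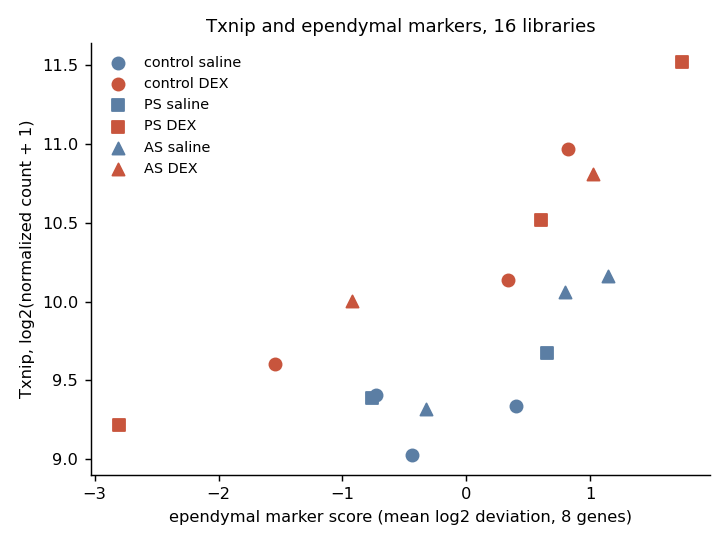
Each point is 1 of 16 libraries, with the ependymal marker score (mean log2 deviation of 8 genes) on the x axis and *Txnip* as log2(normalized count + 1) on the y axis; color gives the treatment and shape the phenotype. *Txnip* rises with the score in both treatments, with the score running from -2.80 to 1.74 in the PS DEX group alone.

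No change of *Arrdc3* with DEX passed the test. In controls it went from 1956, 1736 and 2077 normalized counts under saline to 2598, 2573 and 2463 after DEX (log2 change 0.41, SE 0.13, limma adjusted p = 0.25). These arms were apart, as for 15.9% of all genes. In PS mice it was 1917 and 2153 under saline and 2399, 2447 and 2145 after DEX (0.20, adjusted p = 1.0). In AS mice it was 2083, 1773 and 2670 under saline and 2002 and 2403 after DEX (0.03, adjusted p = 0.94), with overlapping arms in both. Averaged over phenotypes the change was 0.21 (SE 0.08, adjusted p = 0.27). Without AS saline library 40, which held the highest *Arrdc3* value and the highest blood score (1.32) and microglia score (0.58) of all libraries, the change passed in controls (0.41, adjusted p = 0.093) and on average (0.26, adjusted p = 0.05). *Arrdc3* also moved with the 2 measured fibroblast markers, *Dcn* and *Pdgfra* (Pearson r = 0.835 with group means removed, exact permutation p = 0.00019, adjusted p = 0.0135 over the 70 pairs), and *Pdgfra*, which oligodendrocyte precursors also express, rose with DEX on average (0.30, adjusted p = 0.017). With the score of these 2 markers as a covariate the change of *Arrdc3* was 0.26 in controls (adjusted p = 0.45) and 0.14 on average (adjusted p = 0.33), and with the blood score it was 0.49 in controls (adjusted p = 0.081) and 0.23 on average (adjusted p = 0.11).

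*Arrdc1* and *Arrdc4* did not pass in any comparison. *Arrdc1* ranged from 634.3 to 874.5 normalized counts over the saline and from 625.6 to 934.1 over the DEX libraries, and its log2 changes with DEX were 0.06 (controls), 0.20 (PS), 0.29 (AS) and 0.18 (average, SE 0.10, limma adjusted p = 0.43). Its 3 PS DEX libraries (870.3, 875.6 and 891.8) lay above both PS saline libraries (816 and 714.7), as 21.3% of all genes had arms apart in PS. *Arrdc4*, an endocytic adaptor that binds glucose transporters, had log2 changes of -0.25 (controls), 0.12 (PS), -0.18 (AS) and -0.11 (average, SE 0.11, adjusted p = 0.66). In PS mice its DEX libraries (312.9, 344.7 and 324.4 normalized counts) lay above the saline libraries (299.9 and 302.8). In AS mice they (285.9 and 326.5) lay below saline (326.9, 331 and 387.2). Arms were apart for 29.8% of all genes in AS, and the difference of the AS from the PS change was -0.30 (SE 0.27, adjusted p = 0.87).

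No difference of a member between phenotypes passed the test. In limma 0 of 5 members were called in PS or AS against control or in AS against PS, under saline or after DEX, and 0 had an unadjusted p under 0.05; edgeR and DESeq2 called 0 as well. Of all genes, 0% were called in 5 of these 6 comparisons and 0.00689% in AS against control after DEX. An unadjusted p under 0.05 was reached by 7.67% of all genes in PS against control, 2.39% in AS against control and 3.41% in AS against PS under saline, and by 1.23%, 3.5% and 1.7% in these comparisons after DEX. These comparisons share groups with each other. The largest of the members' changes were those of *Txnip* under saline, 0.59 in AS against control (95% interval -0.42 to 1.60) and 0.32 in AS against PS. With the ependymal score as a covariate these 2 changes were 0.23 (limma adjusted p = 0.998) and 0.047 (adjusted p = 0.95). The changes of *Arrdc2* under saline were 0.18 in PS (95% interval -0.25 to 0.62) and 0.10 in AS (95% interval -0.29 to 0.49) against control, and its PS saline libraries were both above the 3 control saline libraries, as 28.5% of all genes had these arms apart. *Arrdc4* was higher in all 3 AS than in both PS saline libraries (0.20, adjusted p = 0.74), arms being apart for 23.6% of all genes. After DEX *Arrdc3* was lower in every PS (-0.13, adjusted p = 1.0) and every AS library (-0.21, adjusted p = 0.99) than in the control libraries, beside 7.66% and 30.3% of all genes with arms apart. In AS against control under saline (4.49% of all genes) and AS against PS after DEX (19.1%) the arms of all 5 members overlapped. For the interaction of phenotype with DEX, limma, edgeR and DESeq2 called 0 of 5 members and 0% of all genes were called in limma. An unadjusted p under 0.05 was reached by 0 members, and by 2.1% (PS against control), 4.02% (AS against control) and 2.9% (AS against PS) of all genes. The smallest unadjusted p among members there was 0.082, for *Arrdc3* in AS against control (-0.38, SE 0.20).

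The genes whose pattern was most like that of a member were sought among 12863 genes with a mean of at least 100 normalized counts. Each r below is among the highest of that many over only 16 libraries. Such top values can be high without any link between the genes, and they were not tested. Over the 16 libraries *Arrdc2* was closest to *Mxd4* (Pearson r = 0.991), *Hr* (0.986) and *Plin4* (0.978), all libraries sharing the same DEX contrast. With group means removed the closest were *Tfdp1* (0.922), *Ewsr1* (0.893) and *A230087F16Rik* (0.878). *Txnip* was closest to *Hhatl* (0.949), *Ppil6* (0.942) and *Kif27* (0.939), and with group means removed to *Kif27* (0.974), *Prrg4* (0.964) and *Cfap54* (0.963). The nearest genes of *Arrdc1* were *9430041J12Rik*, *Rhbdf1* and *Gm960* (0.807 to 0.856), those of *Arrdc3* were *Cep120*, *Errfi1* and *Ell2* (0.854 to 0.885), and those of *Arrdc4* were *C1qtnf12*, *Tmem205* and *Bax* (0.792 to 0.80). With group means removed they were *Gm960*, *Ythdc1* and *Plcd1* for *Arrdc1* (0.824 to 0.876), *Terf2*, *Sec22b* and *Pnpla8* for *Arrdc3* (0.901 to 0.927) and *C1qtnf12*, *Nol8* and *Fam49a* for *Arrdc4* (0.891 to 0.950). Between members, correlations with group means removed ran from -0.48 (*Arrdc1* and *Arrdc4*) to 0.59 (*Arrdc1* and *Arrdc2*).

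The genes that alpha-arrestins work with are given by list, beside 4.31% of all genes called for DEX on average and 0.689% to 1.26% in single phenotypes, and nothing particular to a list is read from counts of 0 or 1. Of 11 genes for Nedd4-family ligases and their adaptors, which ubiquitinate cargo, 0 passed limma in the 4 DEX comparisons, and the nearest on average were *Nedd4l* (log2 change 0.23, adjusted p = 0.32) and *Wwp2* (-0.14, adjusted p = 0.37). Of 14 ESCRT and vesicle genes, which sort or bud ubiquitinated cargo, 0 passed, *Vps37a* (0.21, adjusted p = 0.27) and *Tsg101* (-0.16, adjusted p = 0.34) being nearest. Of the 6 measured beta-arrestins and G protein-coupled receptor kinases, 0 passed, with *Arrb2* at -0.13 (adjusted p = 0.21) and *Grk3* at 0.21 (adjusted p = 0.44). The medians of these lists on average were 0.03, -0.04 and -0.01, beside -0.003 for all genes.

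Among cargo, 1 of 6 measured genes passed: *Itgb4*, an integrin subunit, fell on average (-0.51, SE 0.12, limma adjusted p = 0.039), from 379.9 to 690.5 normalized counts under saline to 284.3 to 381.6 after DEX. Of 15 genes of the thioredoxin system, which *Txnip* restrains by binding thioredoxin, 0 passed, with *Txnrd2* at -0.20 (adjusted p = 0.21) and *Txn2* at -0.22 (adjusted p = 0.23), and a list median of -0.13. Of 8 measured glucose transporters and hexokinases 1 rose: *Slc2a1*, the glucose transporter of brain endothelium and glia and a known cargo of *Txnip*, rose in controls (0.55, adjusted p = 0.011), in PS (0.52, adjusted p = 0.041) and on average (0.47, SE 0.06, adjusted p = 0.00020), while AS gave 0.36 (adjusted p = 0.23), and the AS change differed from the control change by -0.19 (interaction adjusted p = 0.94). Its normalized counts ran from 4308 to 6026 under saline and from 6506 to 7352 after DEX, without overlap, as for 1.88% of all genes.

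Of 7 measured genes of the Mondo/Mlx and Max network 1 rose, *Mxd4*, a transcriptional repressor that pairs with Max and is not itself a glucose sensor. Its log2 changes were 0.86, 0.94 and 1.02 in controls, PS and AS (limma adjusted p = 0.0011, 0.0017 and 0.0012) and 0.94 on average (SE 0.07, adjusted p = 1.57e-06). Its counts ran from 1886 to 2227 under saline and from 3410 to 4826 after DEX, without overlap, as for 1.88% of all genes. *Mlxip*, which encodes the glucose sensor MondoA, gave 0.29 on average (adjusted p = 0.45). Of 3 measured inflammasome genes, a complex *Txnip* is known to bind, 1 rose on average, *Nek7*, a mitotic kinase that also binds the sensor of that complex (0.49, SE 0.11, adjusted p = 0.019). No gene of these lists passed in the 6 comparisons between phenotypes, in limma.

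**Figure D5:**
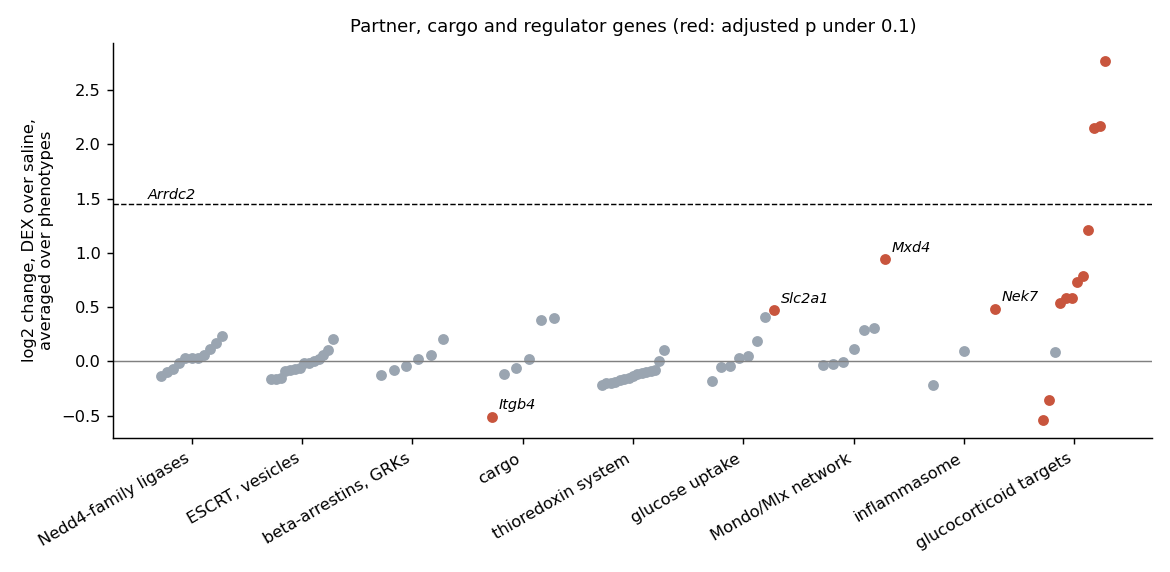
Each point is the log2 change of 1 gene from saline to DEX, averaged over phenotypes, grouped by list on the x axis; red points passed an adjusted p under 0.1 and the dashed line marks *Arrdc2* at 1.45. *Mxd4* (0.94), *Nek7* (0.49), *Slc2a1* (0.47) and *Itgb4* (-0.51) are the red points outside the glucocorticoid targets, of which 9 of 12 rose and 2 fell.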

How the data were processed

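RNA-seq of 16 mouse DRN libraries was analysed in 6 groups taken from the labels (3, 3, 2, 3, 3 and 2 libraries). Per the submitters' processing notes and the study's methods, reads were trimmed with fastp 0.20.1, aligned with HISAT2 2.2.1 to GRCm38 (mm10) and counted with featureCounts (Subread 2.0). The values the authors deposited are a signal, gene counts divided by the DESeq2 (1.36.0) size factor of the library. The authors' tables of their own comparisons (log2 fold changes and p-values) were not used. Multiplied by 1 factor per library, 100% of values were whole within 0.01, which gave the reads and the depth (38207157 to 62447298), and in all 14 replicate pairs the reads differed by more than sampling noise (chi-square over its degrees of freedom at least 22.8). The labels do not say that libraries are separate animals, as the study's methods do, and p-values measure the spread between these libraries.

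The main test was limma 3.58.1 in R 4.3.3 on log2(normalized count + 1), with 1 mean per group over all libraries and eBayes with a trend (10 residual and 3.88 prior degrees of freedom), adjusted by Benjamini-Hochberg over 14504 genes and called under 0.1, the study's threshold. The stated minimum of 10 reads was not met by 973 genes, which were kept. Members were compared within libraries by exact permutation. edgeR 4.0.16 and DESeq2 1.42.0 on recovered reads, pseudocounts of 0.1 and 10, minimum means of 1 and 100, TMM and quantile scaling, robust eBayes, library weights, marker scores as covariates and leaving out each library were alternatives. The tests were tried on simulated data. Exon lengths came from GENCODE vM21, which held 14493 of the genes. Members and lists were chosen with earlier results of these data known. Partner genes were named where called, otherwise the 2 smallest p-values of a list, and for likeness the 3 highest r. The values of 1 cargo gene are not reported here.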

Additional observations from a re-analysis of the deposited data

Results flagged for a closer look

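*Arrdc4* was marked for a closer look because its DEX libraries all lay above the saline libraries in PS mice and all below them in AS mice. The PS change exceeded the AS change by 0.302 on the log2 scale, and the interaction test did not pass (limma, SE 0.27, adjusted p = 0.87). The opposite directions rest on 2 PS saline and 2 AS DEX libraries, and the nearest AS libraries were 326.5 normalized counts after DEX and 326.9 under saline. Arms were apart for 21.3% of all genes in PS and 29.8% in AS.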

How the results depend on the processing

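The rise of *Arrdc2* with DEX kept its direction in all 4 comparisons under every alternative run, and its call was lost only in AS mice, in a fit of the 2 AS groups alone (0 members called) and without AS DEX library 42. In limma, 2 members were called in controls with the ependymal (*Txnip* added) or the blood score (*Arrdc3* added) as covariate, 2 in PS with the ependymal score, and 2 on average with library weights (*Arrdc3* added) or with the ependymal or meninges fibroblast score or DESeq2 (*Txnip* added). Leaving out a library gave 1 to 2 members in controls, 0 to 1 in AS and 1 to 2 on average. The cause was not tested. The choroid plexus, meninges fibroblast, blood and mural scores, and the ependymal score with a library left out, were chosen after seeing the data. No paired analysis was possible because the library numbers in the labels differ between groups, which share none.

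Of 2289 values of single genes under 50 alternatives, 88 changed sign, none of a difference called in either fit, and all from log2 values of at most 0.33 in size. With library weights, under saline AS against control gave 0.14 for *Arrdc1* and -0.083 for *Arrdc3*, and AS against PS 0.13 and -0.15. With these weights the interactions were -0.028, -0.15 and -0.12 for *Arrdc2* (PS against control, AS against control, AS against PS), -0.063 and -0.12 for *Arrdc1* (AS against control, AS against PS) and 0.018 for *Arrdc3* (AS against PS). With the serotonin score they were -0.066, -0.10 and -0.038 for *Arrdc2* and 0.070 for *Txnip* in PS against control, and after DEX -0.017 for *Arrdc2* in AS against control, and -0.042 for *Arrdc1* and 0.085 for *Txnip* in AS against PS. The endothelium score gave interactions of -0.069 and -0.030 for *Arrdc2* (PS and AS against control) and -0.075 for *Arrdc4* (AS against control), and after DEX -0.13 (PS against control) and 0.24 (AS against PS) for *Txnip*. The *Txnip* interaction of PS against control was 0.0096 with the ependymal score, 0.077 in edgeR and 0.082 in DESeq2. For *Arrdc2*, edgeR gave interactions of -0.016 (AS against control) and -0.022 (AS against PS), and DESeq2 -7.21e-05 and -0.010. *Arrdc1* in AS against PS after DEX was -0.0022 with TMM and -0.0016 in edgeR. The DEX change of *Arrdc1* in controls was -0.030 with the blood score, that of *Arrdc4* in PS was -0.0042 with the mural score, and *Arrdc4* in AS against control under saline was -0.033 after quantile normalization.

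Leaving out each library in turn, the DEX change of *Arrdc1* in controls ran from -0.077 to 0.21 and that of *Arrdc3* in AS from -0.10 to 0.19. Under saline, PS against control ran from -0.073 to 0.13 for *Arrdc1* and from -0.00030 to 0.17 for *Arrdc3*. AS against control ran from -0.034 to 0.26 for *Arrdc2*, from -0.20 to 0.032 for *Arrdc1* and from -0.11 to 0.13 for *Arrdc4*. AS against PS ran from -0.22 to 0.079 for *Arrdc2*, from -0.23 to 0.0075 for *Arrdc1* and from -0.080 to 0.22 for *Arrdc3*. After DEX, PS against control ran from -0.37 to 0.78 for *Txnip*, and AS against control from -0.041 to 0.31 for *Arrdc2*, from -0.24 to 0.57 for *Txnip* and from -0.042 to 0.21 for *Arrdc4*. AS against PS ran from -0.19 to 0.013 for *Arrdc2*, from -0.039 to 0.047 for *Arrdc1*, from -0.61 to 0.54 for *Txnip* and from -0.22 to 0.0465 for *Arrdc3*. The interaction of PS against control ran from -0.16 to 0.18 for *Arrdc2*, from -0.0090 to 0.28 for *Arrdc1* and from -0.64 to 0.51 for *Txnip*, that of AS against control from -0.14 to 0.20 for *Arrdc2* and from -0.088 to 0.23 for *Arrdc4*, and that of AS against PS from -0.14 to 0.16 for *Arrdc2*, from -0.0037 to 0.23 for *Arrdc1* and from -0.93 to 0.22 for *Txnip*. The DEX effect of *Arrdc1* minus that of *Arrdc3* ran from -0.11 to 0.066. Of the pairs of members that had not passed, *Arrdc2* against *Txnip* passed without the control DEX library highest in *Txnip*, PS DEX library 64 or AS saline library 8 (exact permutation adjusted p of 0.0444 to 0.0806), and *Arrdc3* against *Txnip* without PS DEX library 6 (0.0405). *Arrdc1* against *Txnip* passed without the control DEX library lowest in *Txnip*, PS DEX library 6, AS saline library 40 or AS DEX library 42 (0.0306 to 0.0972), and *Arrdc1* against *Arrdc4* without the control saline library lowest in *Arrdc4*, the control DEX library lowest in *Arrdc1*, PS saline library 62 or AS saline library 14 (0.0567 to 0.0986). On the recovered reads edgeR called 180 of all genes for DEX in controls and 622 on average, beside 183 and 625 in limma. The DESeq2 counts were 437 for controls, 187 for PS, 274 for AS and 904 for the average. Those for controls, PS and AS equal the study's DRN counts. Between phenotypes and for the interactions edgeR called 0 genes and DESeq2 0 to 12. Depth limits *Arrdc4* most, with as few as 196 reads in a library, and groups of 2 libraries limit the comparisons with PS saline and AS DEX.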
